A study of Mus musculus with 6 samples.

Results

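The 10 genes described here code for actin-binding proteins and for 1 intermediate filament protein: Capg, Coro1a, Cfl1, Pfn1, Tmsb10, Lsp1, Vim, Actn1, Flna and Lcp1. They were measured in Foxp3-positive CD4 regulatory T cells (Treg) of mesenteric lymph nodes on 1-colour Affymetrix mouse arrays. All probe sets that the platform's probe table gives to these symbols were taken, 23 of 45037 that are not controls, for 10 of the 18193 genes with a probe set of their own, and each was kept apart; a probe set is a group of short probes read as 1 value for a transcript. In all, 22 of the 23 passed the filter on low signals and were tested, and no probe set with several symbols listed a member.

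The first group of 3 arrays holds induced Treg (iTreg) of TBmc mice, sorted as CD4+ Foxp3+ cells after 1 week of oral ovalbumin at 1% and labelled Nrp-, that is, negative for neuropilin. TBmc mice are known as animals with 1 T cell receptor against ovalbumin and 1 B cell receptor on a background that cannot rearrange its own receptors. The second group of 3 arrays holds total Treg of wild-type (WT) mice with a Foxp3-GFP reporter. All mice were BALB/c and 4 to 6 weeks old, and receptor, feeding, genotype and gate change together between the groups, so they cannot be told apart. The strain label of iTreg replicate 1 names neither TBmc nor the reporter, and the cell type label of WT replicate 1 reads Nrp-. Nothing says that replicates were separate mice, and p-values therefore cover array-to-array spread alone, whether biological or technical in origin.

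Actin filaments form a dense layer under the T cell membrane that drives migration, cell contact and the immune synapse. Profilin and beta-thymosins hold actin monomers ready, cofilin cuts old filaments, capping proteins of the gelsolin family close fast-growing ends, and alpha-actinin, filamin and plastin tie filaments into networks and bundles. In T cells coronin 1A and LSP1 act at the filament layer, and vimentin forms the intermediate filaments that give lymphocytes stiffness.

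The comparison of iTreg with total WT Treg asks how Treg made outside the thymus differ from the whole Treg pool. Among the members, the actin-capping gene Capg was the one with a large difference, on 1 of its 2 probe sets: its mean signal was 3.72-fold higher in WT Treg than in iTreg. Differences of a further 20 tested probe sets, from the other 9 genes, lay between -0.49 and 0.78 on the log2 scale and had intervals that all included 0. None of the 22 passed the threshold of the test across all probe sets, Capg included. The alpha-actinin gene Actn1 had 3 positive differences. Of the 3 vimentin probe sets, 1 had all iTreg values below all WT values, as did 6.89% of all probe sets tested, and its groups overlapped after median scaling.

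Promoter sequence is shown for the gene with the largest negative and the gene with the largest positive difference, Capg and Actn1. Both are from RefSeq on GRCm38.p6, written 5′ to 3′ on the gene's strand, with matches to GGGCGG on either strand in capitals. For Capg the 250 bases before the start site given in the RefSeq table lie at chr6:72549397-72549646 on the plus strand, inside the longer span that RefSeq annotates for the gene. For Actn1 the 193 bases outside the annotated gene lie at chr12:80260421-80260613 on the minus strand.
Capg: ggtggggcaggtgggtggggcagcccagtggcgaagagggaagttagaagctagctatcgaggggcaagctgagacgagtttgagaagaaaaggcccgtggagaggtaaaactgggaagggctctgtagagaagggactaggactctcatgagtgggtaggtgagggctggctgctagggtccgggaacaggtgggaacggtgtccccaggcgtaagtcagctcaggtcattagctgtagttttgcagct
Actn1: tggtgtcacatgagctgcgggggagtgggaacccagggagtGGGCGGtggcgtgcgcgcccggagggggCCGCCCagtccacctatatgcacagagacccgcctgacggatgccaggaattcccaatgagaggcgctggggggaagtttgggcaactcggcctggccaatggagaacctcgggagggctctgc

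The Capg stretch holds no match to GGGCGG, the GC box, and the shorter Actn1 stretch holds 2. In the full windows of 300 bases Capg has 0 and Actn1 has 4. Promoter windows of 300 bases, 250 before and 50 after a start, were found for 9 of the 10 genes, 13 windows in all, and Lsp1 had none in the table. A GGGCGG match lay in 10 of the 13 windows, from 7 genes, against 35.7% of all 32851 windows. Tmsb10, Coro1a and Lcp1 have several windows each, those of Tmsb10 overlapping, so the windows are not independent. No adjustment for GC content was made. Matches to the CArG box, the site of serum response factor that many actin genes carry, were found in 0 of the 13 and in 1.63% of all windows, and matches to TGANTCA, the AP-1 letters, in 0 of the 13 and in 7.81% of all. Both strands were read, and these are matches of letters only.

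Values are MAS5 signals on a linear scale, taken to be scaled by the authors to 1 level per array. For the test each signal was taken as log2(signal + 16), so that differences of dim probe sets are understated, and log2 differences are given as iTreg minus WT Treg. The test was limma over all 27022 probe sets with a mean in the upper 60% of non-control probe sets, two-sided, with Benjamini-Hochberg adjusted p under 0.05 as the threshold. It called 7 probe sets, 1 higher and 6 lower, or 0.0259% of those tested, and 0 of the 22 members. At an unadjusted p under 0.05 it gave 1 member lower and 0 higher, where 3.77% of all probe sets tested were lower and 2.44% higher. The median log2 difference was 0.06 over the 22 members and -0.02 over all probe sets tested.

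Capg codes for the gelsolin-family protein that caps the fast-growing ends of actin filaments without cutting them. Its probe set 1450355_a_at read 249, 293 and 373 on the iTreg arrays, in the order of replicate number, against 1016, 832 and 1555 on the WT arrays. Every iTreg array lay below every WT array, and the lowest WT value was above the highest iTreg value by a wide margin. The group means were 305 ± 62.6 (SD, n = 3) in iTreg and 1134 ± 376 in WT Treg.

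The log2 difference of that Capg probe set was -1.81 with a standard error of 0.33 and a 95% interval from -2.52 to -1.10. The limma adjusted p was 0.159 and the unadjusted p 1.18e-04, rank 20 of the 27022 probe sets. Of the arrays with label doubts, WT replicate 1 lay with the other WT arrays at 1016, and iTreg replicate 1 was the lowest of all at 249. Without both of them the difference was -1.74 (limma adjusted p = 0.751), and without single arrays it ranged from -2.01 to -1.56.

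The other Capg probe set, 1447803_x_at, read 72.7, 63.1 and 114 on the iTreg arrays against 63.1, 86.1 and 78.9 on the WT arrays. The groups overlapped fully, and the log2 difference was 0.09 with an interval from -0.80 to 0.97. Leaving out single arrays gave values from -0.13 (iTreg replicate 3) to 0.23 (iTreg replicate 2). The ending _x_at marks probes that can match other transcripts, and this probe set carries no accession in the platform table. The lower Capg values in iTreg thus rest on a single probe set. In sorted bulk cells, fewer cells with Capg and less Capg RNA per cell cannot be told apart.

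**Figure D1:**
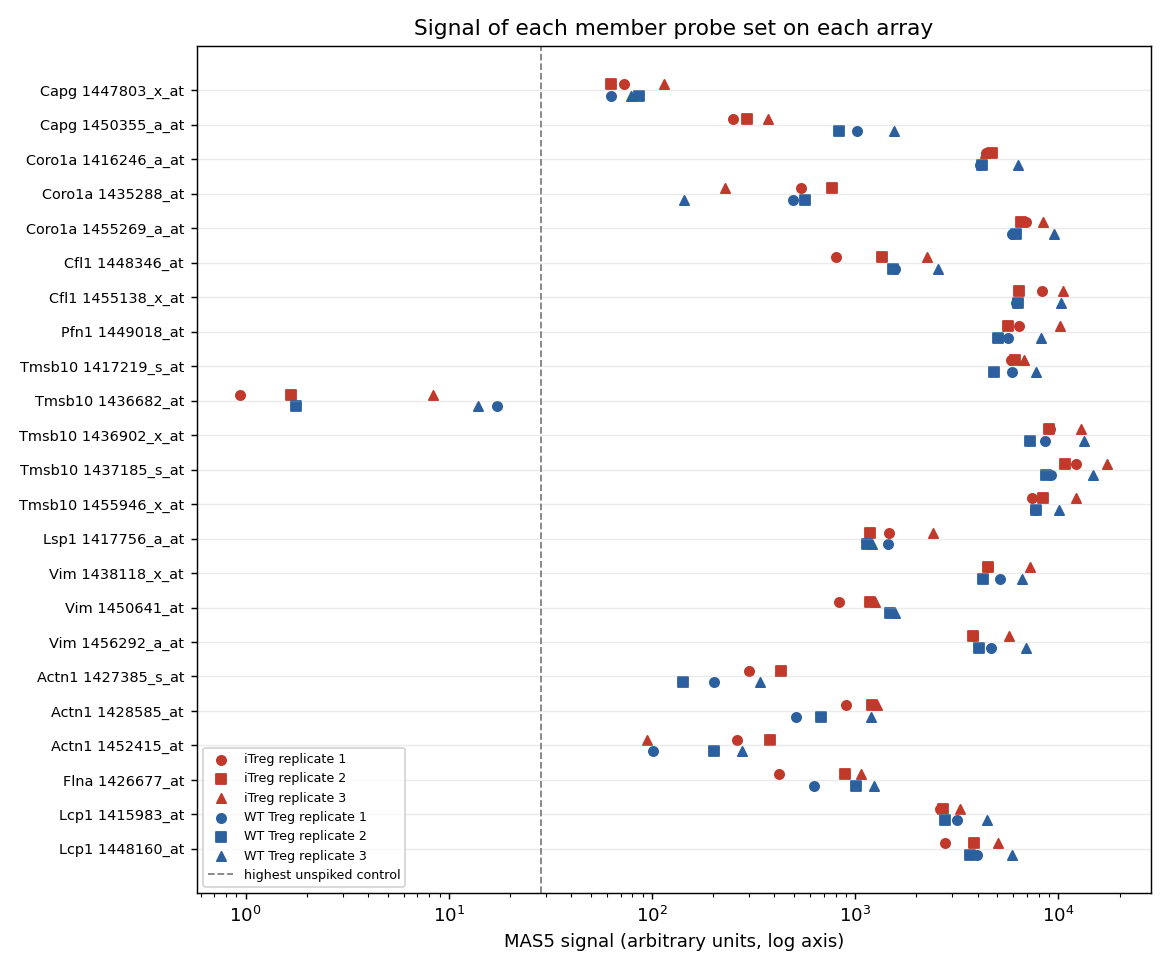
Signal of each of the 23 member probe sets (rows) on each of the 6 arrays, on a log axis in MAS5 units; red is iTreg, blue WT Treg, and the marker gives the replicate number. Capg 1450355_a_at parts into 249 to 373 in iTreg and 832 to 1555 in WT Treg, whereas in most other rows the groups overlap; the dashed line is the highest unspiked control at 28.5.

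Genes with the pattern most like that of Capg 1450355_a_at were found by the root mean square distance between log2 values, each centred on its own mean, over the 6 arrays. The nearest, at a distance of 0.14 log2 units, was Nrp1, a gene of neuropilin, for which the iTreg were labelled negative. Its probe set 1418084_at read 103, 114 and 134 on the iTreg arrays against 422, 430 and 719 on the WT arrays. WT replicate 1, labelled Nrp-, thus read 422 for Nrp1, close to WT replicate 2.

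Next came the extracellular matrix gene Ecm1 (0.19), Larp1b (0.22), the receptor phosphatase gene Ptprj (0.23) and the receptor beta segment Trbv13-2 (0.23). None of the 5 passed the test, their limma adjusted p running from 0.145 to 0.511. The median distance over all probe sets tested was 1.05, and the nearest member other than Capg stood at 0.71. Receptor and gate are among the things that change together between the groups, and their part in these values was not tested.

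Monomer-binding genes overlapped between the groups on every tested probe set. Pfn1 codes for profilin 1, which loads actin monomers with ATP and feeds them to growing ends. Its 1 probe set read 6398, 5658 and 10213 on the iTreg arrays against 5616, 5055 and 8195 on the WT arrays. Within each group replicate 3 was the highest and the groups overlapped. The log2 difference was 0.22 with an interval from -0.43 to 0.88, and it was -0.03 without iTreg replicate 3 and 0.43 without WT replicate 3.

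Tmsb10 codes for thymosin beta 10, a small peptide that keeps actin monomers from joining filaments. Of its 5 probe sets, 1436682_at read at most 17.2 on any array, below the highest unspiked bacterial control at 28.5, and was not tested. Probe set 1437185_s_at, with the largest difference of the gene, read 12163, 10758 and 17368 on the iTreg arrays against 9184, 8669 and 14717 on the WT arrays. Again replicate 3 was the highest array of each group, and the groups overlapped.

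That Tmsb10 probe set differed by 0.32 with an interval from -0.32 to 0.96, by 0.56 without WT replicate 3 and by 0.12 without iTreg replicate 3. The other 3 tested differed by 0.04, 0.11 and 0.12, with intervals of which the widest ran from -0.52 to 0.75. Without iTreg replicate 3 these 3 became -0.02, -0.05 and -0.09, and without WT replicate 3 they became 0.22, 0.37 and 0.25. No Tmsb10 probe set had groups apart.

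Turnover genes gave no common direction. Cfl1 codes for cofilin 1, which cuts and disassembles actin filaments. Its probe set 1455138_x_at read 8258, 6363 and 10554 on the iTreg arrays against 6156, 6300 and 10347 on the WT arrays. The ranges of the groups nearly coincided, and the log2 difference was 0.16 with an interval from -0.49 to 0.80. It was -0.03 without iTreg replicate 3 and 0.40 without WT replicate 3.

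The other Cfl1 probe set, 1448346_at, read 801, 1356 and 2264 on the iTreg arrays against 1573, 1532 and 2560 on the WT arrays. The first 2 iTreg arrays lay below all WT arrays and the other one inside the WT range. Its log2 difference was -0.44 with an interval from -1.25 to 0.38 (limma adjusted p = 0.911). It was -0.81 without iTreg replicate 3 and -0.07 without iTreg replicate 1, so that its size rests on single arrays.

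Coro1a codes for coronin 1A, the haematopoietic coronin that binds filaments and restrains the Arp2/3 complex. Its probe set 1455269_a_at read 6939, 6573 and 8358 on the iTreg arrays against 5897, 6215 and 9500 on the WT arrays. Its probe set 1416246_a_at read 4384, 4721 and 4327 on the iTreg arrays against 4096, 4195 and 6298 on the WT arrays. In both the WT group was the wider and enclosed the iTreg values.

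The log2 differences of these Coro1a probe sets were 0.04 (interval -0.55 to 0.63) and -0.09 (interval -0.67 to 0.48). Without single arrays they ranged from -0.08 to 0.26, the lowest without WT replicate 1, and from -0.20 to 0.11, the highest without WT replicate 3. The third, 1435288_at, ran the other way across arrays: 541, 767 and 229 on the iTreg arrays against 492, 565 and 143 on the WT arrays. Here replicate 3 was the lowest array of both groups. Its difference was 0.39 with an interval from -0.75 to 1.54, and it was -0.20 without WT replicate 3 and 0.87 without iTreg replicate 3.

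Of the genes of networks and bundles, Actn1 had positive and Flna and Lcp1 negative differences. Actn1 codes for alpha-actinin 1, which crosslinks filaments and ties them to integrins. Its probe set 1427385_s_at read 301, 430 and 426 on the iTreg arrays against 202, 142 and 340 on the WT arrays, and 1428585_at read 896, 1203 and 1280 against 513, 680 and 1202. In both, WT replicate 3 reached into the iTreg range and the other WT arrays lay below every iTreg array.

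The log2 differences of these Actn1 probe sets were 0.78 (interval -0.03 to 1.60; limma adjusted p = 0.816) and 0.56 (interval -0.18 to 1.31; limma adjusted p = 0.866). The first was 1.10 without WT replicate 3 and 0.51 without WT replicate 2. The second was 0.90 without WT replicate 3 and 0.29 without WT replicate 1. The third, 1452415_at, read 262, 383 and 94.6 on the iTreg arrays against 101, 201 and 277 on the WT arrays. The groups overlapped fully, with a difference of 0.24 and an interval from -0.87 to 1.34. Leaving out iTreg replicate 2 gave -0.16, leaving out WT replicate 1 gave -0.13, and leaving out iTreg replicate 3 gave 0.77.

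Flna codes for filamin A, a long crosslinker that joins filaments to integrins and other membrane proteins. Its 1 probe set read 421, 895 and 1071 on the iTreg arrays against 630, 1012 and 1237 on the WT arrays. Replicate 1 was the lowest and replicate 3 the highest in both groups, and the groups overlapped. The difference was -0.31 with an interval from -1.15 to 0.52, and it was 0.08 without iTreg replicate 1 and -0.59 without WT replicate 1.

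Lcp1 codes for L-plastin, the leukocyte bundling protein that is phosphorylated on T cell activation. Its probe set 1415983_at read 2604, 2707 and 3283 on the iTreg arrays against 3156, 2768 and 4465 on the WT arrays, and 1448160_at read 2772, 3836 and 5048 against 3959, 3683 and 5912. In the first, 2 iTreg arrays lay below all WT arrays, and the groups overlapped for both probe sets. The differences were -0.25 (interval -0.85 to 0.35) and -0.23 (interval -0.88 to 0.43). The first was -0.05 without WT replicate 3 and -0.40 without WT replicate 2, and the second -0.0056 without iTreg replicate 1 and -0.44 without iTreg replicate 3.

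Lsp1 codes for leukocyte-specific protein 1, an actin binder of motile leukocytes. Its 1 probe set read 1473, 1186 and 2426 on the iTreg arrays against 1455, 1144 and 1211 on the WT arrays. The iTreg replicate 3 array stood far above the WT range, and the groups overlapped. The difference was 0.35 with an interval from -0.32 to 1.03, and it was 0.06 without iTreg replicate 3 and 0.58 without iTreg replicate 2.

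Vim codes for vimentin, the intermediate filament protein of lymphocytes and mesenchymal cells. Its probe set 1450641_at read 833, 1182 and 1247 on the iTreg arrays against 1496, 1485 and 1563 on the WT arrays. Every iTreg array was below every WT array, and the WT arrays lay within a narrow range. The means were 1087 ± 223 (SD, n = 3) and 1515 ± 42.4, and the log2 difference was -0.49 with an interval from -1.09 to 0.10 (limma adjusted p = 0.859). It was -0.32 without iTreg replicate 1 and -0.60 without iTreg replicate 3.

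The other Vim probe sets overlapped between the groups. Probe set 1438118_x_at read 4478, 4525 and 7269 on the iTreg arrays against 5172, 4274 and 6655 on the WT arrays, a difference of 6.25e-04 with an interval from -0.63 to 0.63. Probe set 1456292_a_at read 3784, 3808 and 5731 against 4639, 4057 and 6906, a difference of -0.22 with an interval from -0.85 to 0.42. The first was -0.23 without iTreg replicate 3 and 0.17 without WT replicate 3, and the second was -0.41 and 0.01 without these arrays.

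**Figure D2:**
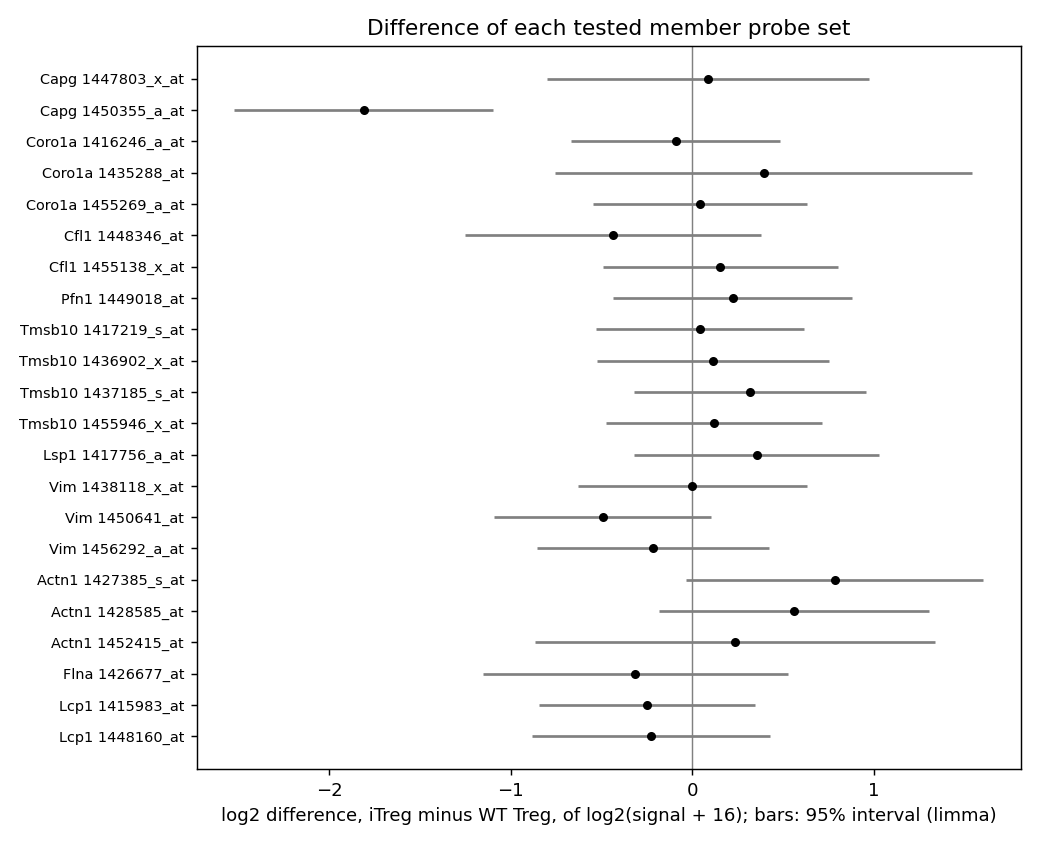
Difference of log2(signal + 16), iTreg minus WT Treg, for the 22 tested member probe sets (rows); bars are 95% intervals of the limma fit. Capg 1450355_a_at at -1.81 is the 1 row whose interval, -2.52 to -1.10, leaves out 0.

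Groups without overlap, both with iTreg lower, were found for 2 of the 22 members, Capg 1450355_a_at and Vim 1450641_at. Over all probe sets tested 6.89% had iTreg wholly below WT Treg and 4.54% had it wholly above. A share of 2 in 22 is thus near the background. The number was 3 after quantile normalization, with Lcp1 1415983_at added, and 1 after median scaling, where Vim 1450641_at overlapped. A difference of more than 1 log2 unit in either direction was found for 1 of the 22, against 4.85% of all probe sets tested.

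Replicate 3 stood high for most members. In 16 of the 22, replicate 3 was the highest array of both iTreg and WT Treg, a pattern of 11.8% of all probe sets tested and of 29.4% of the brightest 10%, to which 17 of the 22 belong. The median log2 distance of replicate 3 from the mean of its group's other arrays was 0.52 in iTreg and 0.62 in WT Treg for the members, and -0.07 and -0.14 over all probe sets tested. Over the brightest 10% this median distance was 0.06 in iTreg and 0.34 in WT Treg. Coro1a 1435288_at was the 1 member lowest in replicate 3 of both groups.

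Spike-in controls were brightest on the same arrays. The mean log2 signal of 9 spike-in probe sets was 12.57, 12.72 and 13.02 on the iTreg arrays against 12.27, 12.47 and 13.11 on the WT arrays, while the median signal of non-control probe sets was lowest there, at 24.3 and 21.1 against 26.8 to 32.3 on the other arrays. The pattern moved with the scaling. After quantile normalization it held for 10 of the 22 members and 15.8% of all probe sets tested, with median distances of 0.25 and 0.07 for the members. After median scaling it held for 20 of the 22 and 25.2% of all, with median distances of 0.69 and 1.23. With both replicate 3 arrays left out, a choice made after this was seen, Capg 1450355_a_at differed by -1.71 and the 3 Actn1 probe sets by 1.02, 0.80 and 1.06, with 0 members called by limma. At an unadjusted p under 0.05 this setting gave 4 of the 22 members, and 498 higher and 905 lower of all 27022 probe sets.

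**Figure D3:**
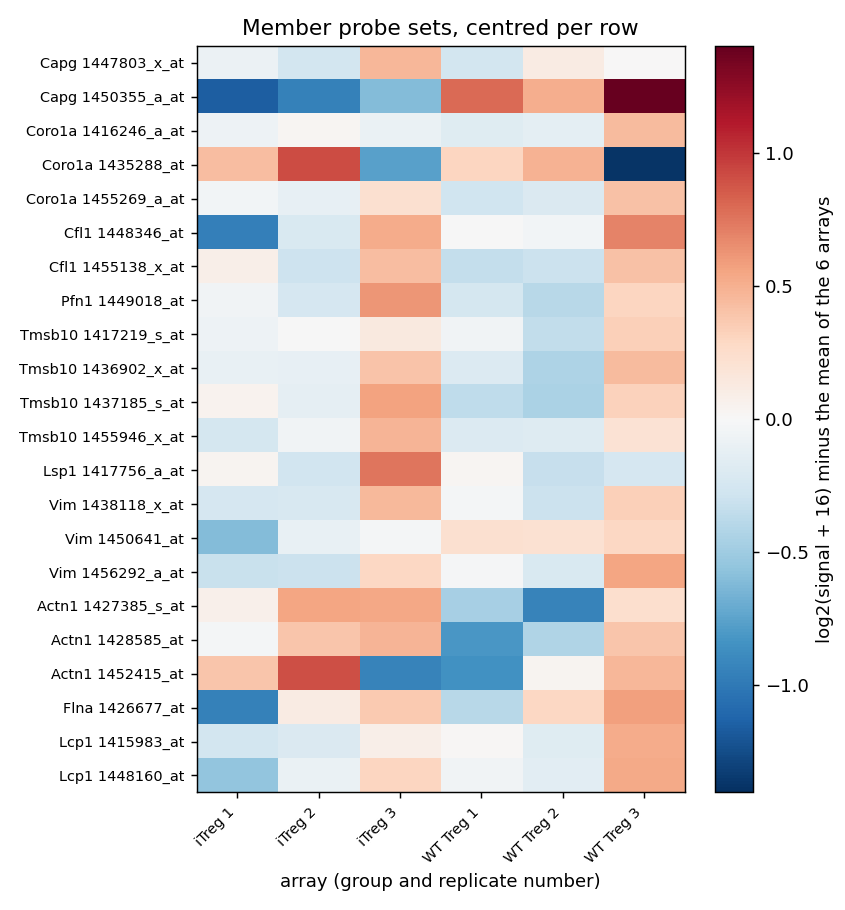
Log2(signal + 16) of the 22 tested member probe sets (rows) on each array (columns), minus the mean of the row over the 6 arrays; red is above and blue below that mean. The replicate 3 columns of both groups are mostly red, 16 rows being highest there in both, and Capg 1450355_a_at and Vim 1450641_at are the 2 rows whose groups do not overlap.

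RNA quality and other cell types were read on the same arrays. The log2 ratio of 3′ to 5′ signals of the beta-actin control was 0.38, 0.25 and -4.37e-04 on the iTreg arrays against 0.14, 0.27 and 0.32 on the WT arrays (exact permutation p = 0.80, two-sided). That of Gapdh was 3.06, 2.48 and 3.38 on the iTreg arrays against 2.28, 2.53 and 2.34 on the WT arrays (exact permutation p = 0.20; 3 arrays against 3 cannot go below 0.10). Its part in the values of single probe sets was not tested.

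Markers of T cells were bright, all 7 listed genes on the array lying above the unspiked controls on every array, and so were 7 of 8 Treg markers. Foxp3 itself was the exception, at 9.16 to 54.6 on its 1 probe set. For 5 of the 8 Treg markers, and for Cd5 of the T cell list, all iTreg values lay below all WT values. This held for 6.89% of all probe sets tested. For the lists of B cells, dendritic cells, CD8 T and NK cells, stromal and endothelial cells and erythroid cells the summed signals of the groups overlapped. In the CD8 T and NK list 3 of 7 genes (Prf1, Cd8b1 and Cd8a) lay above the controls on all arrays. So did Zbtb46 of the dendritic list and Pecam1 of the stromal and endothelial list, and 0 genes of the B cell and erythroid lists. Capg and Vim are also bright in myeloid cells. Of 9 macrophage and monocyte markers on the array, 0 were above the controls on all arrays, 3 (Cd14, Adgre1 and Fcgr1) were below them on all, and their summed signal was 155 to 213 in iTreg and 83.6 to 148 in WT Treg. The neutrophil list summed to 86.2 to 192 in iTreg and 37.9 to 74.8 in WT Treg, with S100a8 and S100a9 wholly above in iTreg. Of its 7 genes on the array, 0 were above the controls on all arrays. The other 5 (Camp, Mpo, Elane, Ngp and Csf3r) were below them on all. S100a8 read 16.8, 91.2 and 18.1 on the iTreg arrays against 1.59, 9.44 and 12.7 on the WT arrays, mostly below the highest control at 28.5. S100a9 read 51.8, 78.5 and 33.0 on the iTreg arrays, all above that control, against 13.1, 1.37 and 0.81 on the WT arrays. Lyz2 of the macrophage list and Cd8b1 of the CD8 T and NK list were wholly above too, as were 4.54% of all probe sets tested. Lyz2 was near that control, at 44.6, 44.2 and 23.1 on the iTreg arrays against 21.9, 9.01 and 8.79 on the WT arrays. The macrophage and neutrophil lists thus had their higher sums in iTreg, where Capg had its lower values, and their part in the member values was not tested.

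The rest of the actin machinery was read through 9 lists by role, which include a list of intermediate filament genes. They hold 100 genes, of which 91 were on the array and 84 had a tested probe set. Of their 197 tested probe sets 0 passed the limma test, and 4 were higher and 3 lower at an unadjusted p under 0.05, or 3.55%, against 6.21% of all probe sets tested. Their median log2 difference was 0.07. The actin genes overlapped between the groups: the 2 Actb probe sets differed by 0.07 and -0.03 and the one of Actg1 by 0.17.

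The capping and severing list held 3 of the 4 higher probe sets, all of Gsn, the gelsolin gene and the family relative of Capg. Its probe set 1436991_x_at read 646, 445 and 720 on the iTreg arrays against 200, 318 and 293 on the WT arrays. Every iTreg array was above every WT array, opposite in direction to Capg. The log2 difference was 1.11 (SE 0.33; limma adjusted p = 0.619), and it stayed positive after quantile normalization, after median scaling and without any single array.

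The other 4 tested Gsn probe sets differed by 1.04, 0.97, 0.89 and 0.29, and none passed. The last 2 ranged from 0.59 to 1.40 and from 0.16 to 0.51 without single arrays. Of the 5 tested, 4 have the ending _x_at. The end-capping subunit gene Capza2 differed by 0.60 and, on its other probe set, by 0.12.

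In the other lists the genes with the smallest p went both ways and none passed. Arpc4, a subunit of the Arp2/3 complex that branches filaments, differed by -0.91 on 1 probe set and by 0.33 on the other. Probe sets of Fscn1, the gene of the bundling protein fascin, and of Enah, which extends filaments, were read near background. Fscn1 1448378_at read 65.2, 25.3 and 48.6 on the iTreg arrays against 20.2, 5.42 and 2.87 on the WT arrays, and Enah 1424800_at read 12.1, 1.31 and 27.3 against 47.3, 46.1 and 69.7. The lower group of each lay below the highest unspiked control at 28.5 on every array, and each passed the filter through its higher group, so no size is given for them.

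The remaining genes stood at an unadjusted p above 0.05, and most have other probe sets that lie nearer 0 or go the other way. The probe set of smallest p differed by 0.62 for the formin gene Diaph1, with 0.02 and 0.16 on its others, and by 0.50 for Wipf1, with 0.19 on its other. Among the myosin genes it differed by 0.77 for Myo1f, with 0.31 and 0.61 on its others, and by 0.75 for Myo9b, with -0.47 and 0.29. It differed by 1.03 for Plec, with -0.07 and 0.07 on its others, by -0.46 for Cap1, with 0.15, and by -0.52 for Pfn2, with -0.27 and 0.36. It differed by -1.10 for Coro1c, with -0.20 and 0.28 on its others, and by -1.07 for Arpc2, with -0.05. That Coro1c probe set read 21.4, 99.9 and 1.49 on the iTreg arrays against 30.4, 91.5 and 135 on the WT arrays. Its values in iTreg replicates 1 and 3 lay below the highest unspiked control at 28.5. Lmnb2, with 1 tested probe set, differed by 0.66. Plec and Lmnb2 come from the intermediate filament list. The 1 tested probe set of Coro2a read 20.2, 17.6 and 59.0 on the iTreg arrays against 20.8, 8.12 and 1.34 on the WT arrays. Its WT values all lay below the highest unspiked control at 28.5, and it passed the filter through iTreg, so no size is given.

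Single arrays moved many of these values by more than 1.5 times. Without single arrays the difference went down to 0.25 for Plec, and ranged from -0.74 to -0.09 for Cap1, from -0.90 to -0.05 for Pfn2 and from -1.83 to -0.47 for Coro1c. It ranged from -1.48 to -0.68 for Arpc2, from 0.38 to 0.93 for Lmnb2, from 0.39 to 0.87 for Diaph1 and from 0.50 to 0.97 for Myo1f. The lowest size came without iTreg replicate 3 for Plec, Pfn2, Coro1c and Myo1f, without iTreg replicate 1 for Cap1 and without iTreg replicate 2 for Arpc2. It came without WT replicate 2 for Lmnb2 and without WT replicate 3 for Diaph1.

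**Figure D4:**
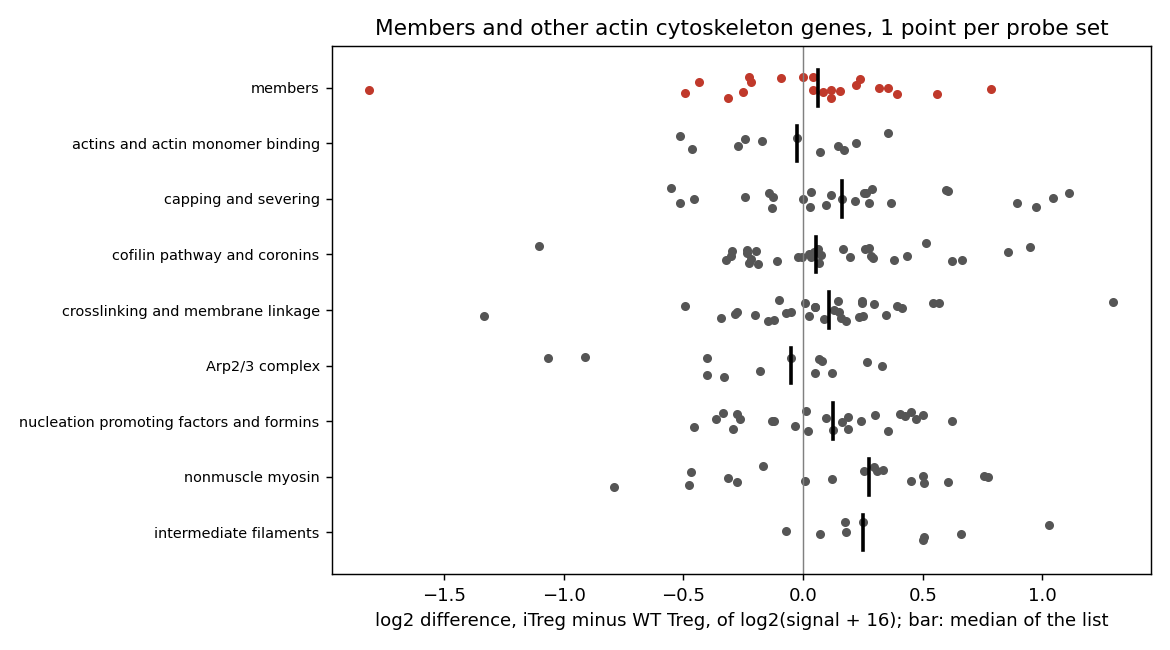
Difference of log2(signal + 16), iTreg minus WT Treg, for the 22 tested member probe sets (red) and the 165 tested probe sets of 8 lists (grey), 1 point each. The lists are of actin genes and, in the intermediate filament list, of other filament genes. The black bar is the median of a list, and vertical scatter has no meaning. Medians lie between -0.05 and 0.27, and the lowest point of all is Capg at -1.81.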

How the data were processed

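Each array came as a column of MAS5 intensity values, linear and deposited by the authors, as the submitters' processing notes name MAS5; its version and the genome build are not given in the sources used here. The 2% trimmed mean, averaged over the 6 arrays, was 150.0, from which a scaling by the authors was inferred. RNA was extracted with Trizol and labelled by Affymetrix's standard protocol, per the labels. Groups and replicate numbers came from sample titles.

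Of 45101 probe sets, 64 controls were left out. The platform table gave 34945 probe sets 1 symbol, 932 several and 9160 none. Signals were taken as log2(signal + 16). Probe sets whose mean reached the 40th percentile (4.91) were tested with limma 3.58.1 in R 4.3.3 (eBayes with a trend), 27022 in all, with Benjamini-Hochberg adjustment. The procedure was tested on simulated data. Array measures were compared with exact permutation tests. Promoters came from RefSeq, GRCm38.p6. The number of arrays limits the precision.

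Every member probe set is given, with the 2 genes of smallest p in each list, except 1 list whose genes are not reported here, and the 5 probe sets nearest to Capg; actin's and Gsn's further probe sets were added after their values were seen. The members and lists were chosen with earlier results of these data known. Other settings were a pseudocount of 1 or 64, median scaling or quantile normalization, the 60th percentile or none as filter, a fit without trend, 1 probe set per gene, the replicate number as a block, and arrays left out.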

Additional observations from a re-analysis of the deposited data

How the results depend on the processing

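No member was called under any of the 17 alternatives run, and Capg 1450355_a_at kept its direction in all 17, with log2 differences from -2.01 to -1.56 and limma adjusted p from 0.0951 to 0.751. The counts of called probe sets over the whole table, 1 higher and 6 lower, were 0 and 2 with a pseudocount of 1 and without a filter, 0 and 3 with 1 probe set per gene, 2 higher with median scaling, 0 and 0 without both arrays with label doubts (limma; 600 and 653 at an unadjusted p under 0.05), and 0 and 0 without both replicate 3 arrays (limma; 498 and 905), the last chosen after seeing the data. Leaving out single arrays gave 0 to 3 higher and 0 to 6 lower. With the replicate block 2 were called lower, and Capg 1450355_a_at stood at an adjusted p of 0.129. Deviations of same-numbered arrays from their group means correlated at 0.19, 0.04 and 0.12 over probe sets, so the numbers were not taken as pairs; every array correlated best with the array of its own number, a hint from the data and not from the design.

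Signs of small differences turned with single arrays, the cause of which was not tested. Without single arrays the log2 differences ranged from -0.59 to 0.082 for Flna 1426677_at, from -0.16 to 0.77 for Actn1 1452415_at, from -0.12 to 0.22 for Tmsb10 1417219_s_at, from -0.074 to 0.37 for Tmsb10 1436902_x_at, from -0.23 to 0.17 for Vim 1438118_x_at, from -0.13 to 0.23 for Capg 1447803_x_at, from -0.032 to 0.43 for Pfn1 1449018_at, from -0.025 to 0.40 for Cfl1 1455138_x_at, from -0.084 to 0.26 for Coro1a 1455269_a_at, from -0.091 to 0.27 for Tmsb10 1455946_x_at, from -0.20 to 0.11 for Coro1a 1416246_a_at, from -0.20 to 0.87 for Coro1a 1435288_at and from -0.41 to 0.0057 for Vim 1456292_a_at. Quantile normalization gave -0.027 for Vim 1438118_x_at. Without both arrays with label doubts Actn1 1452415_at was at -0.27 and Coro1a 1455269_a_at at -0.052. Without both replicate 3 arrays Coro1a 1416246_a_at was at 0.13, Vim 1438118_x_at at -0.063 and Capg 1447803_x_at at -0.10. Over the members 14 differences were positive and 8 negative, 13 and 9 after quantile normalization and 14 and 8 after median scaling. Members on signals near the unspiked controls, such as Tmsb10 1436682_at, could not be compared.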
